A study of Mus musculus with 10 samples.

Results

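The 10 genes described here encode the core of the circadian clock and one of its output factors: Arntl, Clock, Per1, Per2, Per3, Cry1, Cry2, Nr1d1, Nr1d2 and Dbp. They were chosen by symbol, and all 10 were present among the 55421 genes of the count table and passed the filter on low counts. The tissue was ulcer from db/db mice, which lack a working leptin receptor and become obese and diabetic, and the ulcers had been produced by surgery. After 7 days of administration there were 5 libraries from ulcers given Fu Huang ointment in addition to saline (the ointment ulcers) and 5 from ulcers given saline without ointment (the saline ulcers). Both groups share the db/db background and the surgery. The age and sex of the mice, whether each library came from a separate animal, and the time of day at which tissue was taken are not stated in the labels. With one sampling of each ulcer, a shift in the timing of a rhythm and a change in its mean level cannot be told apart.

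The clock is a loop of transcription factors. ARNTL (also called BMAL1) and CLOCK bind together to E-boxes and switch on the Per, Cry, Nr1d and Dbp genes. The PER and CRY proteins then block ARNTL and CLOCK, the REV-ERB receptors encoded by Nr1d1 and Nr1d2 repress Arntl, and DBP acts on D-boxes, which several Per genes carry. In mouse tissues the transcripts peak one after another over the day, with Arntl opposite in phase to Dbp and the Per genes and with Cry1 late, and Per1 is also switched on directly by glucocorticoid and cyclic AMP signals. Keratinocytes, fibroblasts, hair follicles and immune cells of the skin all carry such clocks.

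The promoters bear on how the members are grouped, because E-boxes and D-boxes are the sites through which the loop runs. RefSeq start sites on GRCm38.p6 gave 13 windows of 250 bases upstream for 9 members (Per2 was not among them). Clock, Arntl and Per1 each had several windows, some of which overlapped, so the 13 are not all separate promoters. An E-box (CACGTG) was present in 2 of the 13 windows, a window of Per1 and that of Cry1, and in 6.02% of 32851 windows of the same length over all genes. The E′-box, a variant (CACGTT on either strand), was present in 3 windows, those of Cry1, Cry2 and Nr1d1, and in 3.85% of all windows. A D-box (TTATGTAA or TTACGTAA) was found in the window of Per3 alone, at 2 places, and in 0.93% of all windows. The core of the ROR element (TAGGTCA or TGGGTCA), through which REV-ERB receptors act, was in none of the 13 windows and in 5.38% of all, and the cyclic AMP response element (TGACGTCA) was in none and in 1.55%. Both strands were searched, and no found sites overlapped each other. Sites downstream of the start, or farther than 250 bases upstream, were not searched, nor were other spellings of these sites. An absent site therefore holds for these windows and these exact letters only. The other Per1 window held none of the sites searched, and both Per1 windows lie inside the annotated span of the gene. The 4 sequences below are those of the member with the adjusted call in this study (Per1), the member whose window held an E-box and an E′-box (Cry1), the REV-ERB gene with an E′-box (Nr1d1) and the member with D-boxes (Per3). They run 5′ to 3′ along the gene's strand, with the matched letters in capitals and without bases that the annotation places in an exon.
Per1 promoter, chr11:69098699-69098947, plus strand: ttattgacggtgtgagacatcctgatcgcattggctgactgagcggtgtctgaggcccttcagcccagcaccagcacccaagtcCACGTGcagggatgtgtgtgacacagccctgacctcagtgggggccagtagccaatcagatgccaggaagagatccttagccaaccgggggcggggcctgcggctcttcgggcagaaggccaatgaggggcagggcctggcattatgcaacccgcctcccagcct
Cry1 promoter, chr10:85185065-85185304, minus strand: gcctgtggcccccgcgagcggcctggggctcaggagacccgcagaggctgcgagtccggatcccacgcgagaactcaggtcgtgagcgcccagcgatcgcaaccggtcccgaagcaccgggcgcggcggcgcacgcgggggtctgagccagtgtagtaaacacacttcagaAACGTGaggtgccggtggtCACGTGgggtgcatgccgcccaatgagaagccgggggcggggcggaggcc
Nr1d1 promoter, chr11:98775378-98775627, minus strand: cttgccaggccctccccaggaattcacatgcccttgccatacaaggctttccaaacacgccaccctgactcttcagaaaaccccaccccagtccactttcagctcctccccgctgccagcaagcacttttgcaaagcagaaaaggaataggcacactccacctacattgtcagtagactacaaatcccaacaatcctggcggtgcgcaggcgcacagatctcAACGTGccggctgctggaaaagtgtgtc
Per3 promoter, chr4:151044666-151044915, minus strand: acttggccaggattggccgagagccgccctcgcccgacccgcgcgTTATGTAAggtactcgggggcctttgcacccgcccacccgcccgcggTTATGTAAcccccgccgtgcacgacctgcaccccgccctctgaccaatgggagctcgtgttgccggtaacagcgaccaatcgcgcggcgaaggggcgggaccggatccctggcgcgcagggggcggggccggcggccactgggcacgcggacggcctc
The E-box of Per1 began 166 bases before the start site and that of Cry1 began 60 bases before it, with its E′-box at 79 bases. The E′-box of Nr1d1 began 28 bases before the start, and the D-boxes of Per3 began at 205 and 158 bases.

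Of the 10 clock genes, Per1 was higher in the ointment ulcers by the test over all genes, and the other 9 did not pass. The members pointed in different directions: Per1, Cry1, Per2 and Cry2 had positive fold changes, and Dbp, Nr1d1, Clock, Nr1d2, Per3 and Arntl had negative ones. The test was edgeR's quasi-likelihood test with Benjamini-Hochberg adjustment over 18509 genes, called at an adjusted p under 0.05, and fold changes are ointment over saline. It called 1.67% of all genes tested, 0.692% as higher and 0.983% as lower. At an unadjusted p under 0.05 there were 5 of the 10 members (Per1, Cry1, Nr1d1, Dbp and Nr1d2) against 17.1% of all genes tested. The members' median log2 fold change was -0.31, and that of all genes was -0.0025.

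**Figure D1:**
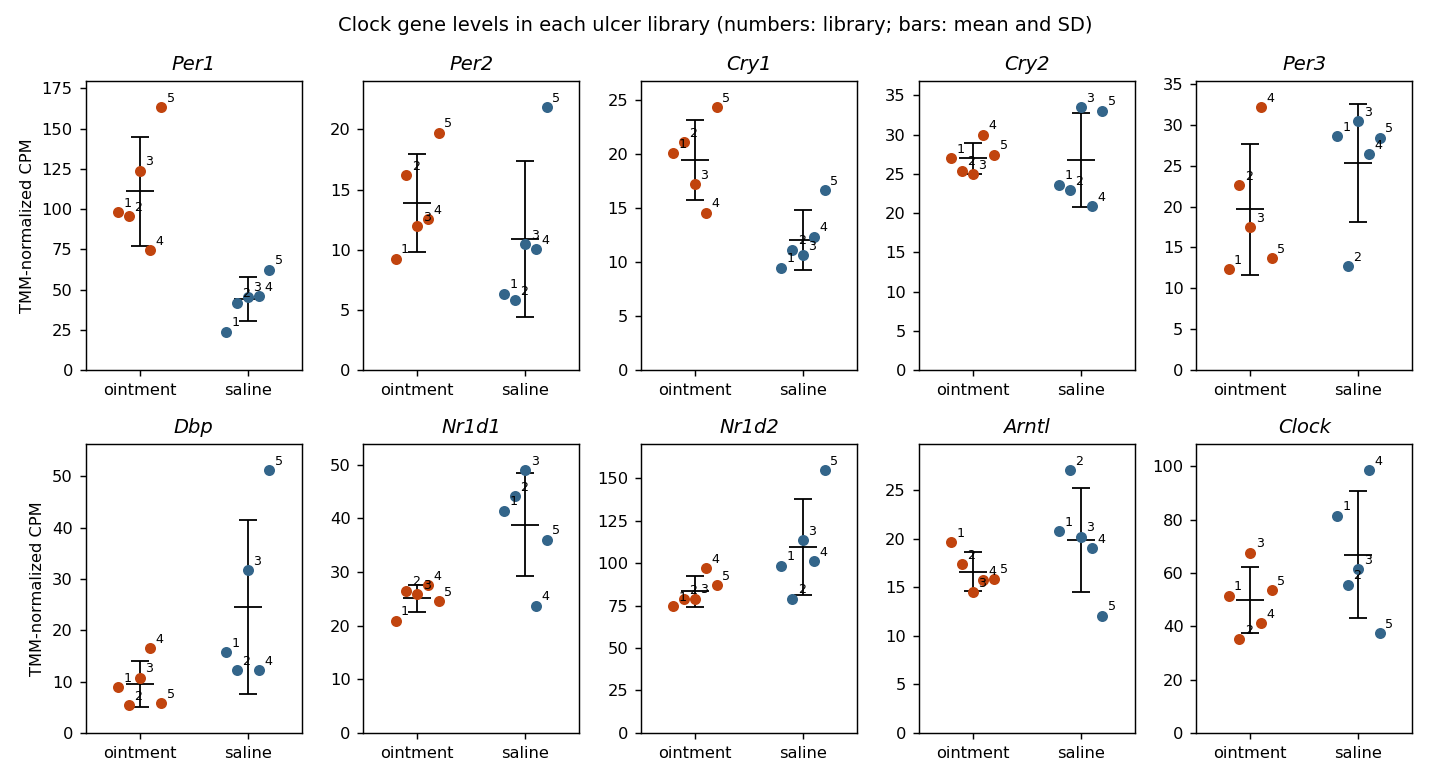
Level of each clock gene in TMM-normalized CPM (the count scaled to a common library total), 1 panel per gene, with 1 point per library numbered 1 to 5 and bars for the mean and SD of each group. Per1 is the panel in which the ointment points (74.7 to 163 CPM) all lie above the saline points (24.0 to 62.4 CPM).

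The ointment libraries held 47.8 to 62.9 M counts and the saline libraries 58.1 to 62.7 M, and the members had 288 to 9380 counts in any library. The labelled tissue was checked with marker lists of 6 genes each. Keratinocyte markers summed to 11754 to 20133 CPM in the ointment ulcers and 16193 to 22834 CPM in the saline ulcers, and fibroblast markers to 17791 to 58629 CPM and 35675 to 54214 CPM, so both were abundant and none of their genes was at 0 in any library. Of the macrophage list 2 genes were higher with ointment, of the adipocyte list 1, and of the hair follicle list all 6 were lower. Over all genes tested, 0.692% were called higher and 0.983% lower. The lists had been chosen with earlier results of these data known, so these counts describe the tissue and are not a test. No keratinocyte, fibroblast, endothelial, neutrophil or skeletal muscle marker passed. All 6 neutrophil markers nevertheless had positive fold changes (median log2 fold change 1.88) and an unadjusted p under 0.05 by edgeR, against 17.1% of all genes.

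Per1 (ENSMUSG00000020893, chr11:69095217-69109960 on GRCm38, plus strand), a repressor of the loop that also responds rapidly to hormones, was the member with the call. It had 98.2, 95.5, 124, 74.7 and 163 CPM in ointment ulcers 1 to 5, against 24.0, 41.8, 45.7, 46.0 and 62.4 CPM in saline ulcers 1 to 5. Every ointment library lay above every saline library, which held for 6.54% of all genes tested in one direction or the other. The means were 111 ± 34.0 CPM with ointment and 44.0 ± 13.7 CPM with saline (SD, n = 5 each), a 2.53-fold difference (log2 fold change 1.34, SE 0.27, 95% interval 0.73 to 1.94, adjusted p = 0.0412 by edgeR). An exact two-sided permutation test gave p = 0.00794, the smallest that 5 libraries against 5 allow. The call lay close to the threshold: it was lost in 8 of the 10 fits that left out 1 library (adjusted p = 0.0685 without saline 1 to 0.0982 without ointment 3) and kept without ointment 4 (0.0347) or saline 5 (0.0411), with a log2 fold change of 1.16 to 1.5 in these 10 fits. In bulk tissue, more cells that express a gene and more RNA per cell cannot be told apart.

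Marker sums of several cell types also differed in range between the groups. The macrophage markers summed to 1907 to 3500 CPM in the ointment ulcers and 1011 to 1933 CPM in the saline ulcers. Of this list, C1qa and C1qb varied widely within each group. C1qa ran from 139 to 894 CPM with ointment and from 73.2 to 454 CPM with saline. C1qb ran from 173 to 1048 CPM with ointment and from 87.9 to 685 CPM with saline. The neutrophil markers summed to 1672 to 7731 CPM and 847 to 2712 CPM. The highest sum, the highest Per1 and the highest Cry1 were in ointment 5, and the lowest of each in saline 1. Elsewhere the orders differed. Saline 4 had a sum of 2712 CPM, above ointment 1 (2237 CPM) and ointment 4 (1672 CPM). Its Per1 was 46.0 CPM, below the 98.2 and 74.7 CPM of those libraries. Most of each sum came from S100a8 and S100a9 (962 and 1490 CPM in saline 4). The rest of the list (Csf3r, Cxcr2, Ly6g and Retnlg) was lower in saline 4 than in ointment 1, and higher than in ointment 4. For Csf3r the values were 156 CPM in saline 4, 214 CPM in ointment 1 and 128 CPM in ointment 4. The adipocyte markers summed to 1105 to 1969 CPM with ointment and 503 to 1422 CPM with saline, most of it from Fabp4, a fatty acid carrier (means 1239 CPM with ointment and 613 CPM with saline). The list did not move one way: the leptin gene Lep rose (log2 fold change 4.16, edgeR adjusted p = 0.0347), while the adiponectin gene Adipoq averaged 39.3 ± 12.2 CPM with ointment and 96.4 ± 63.1 CPM with saline (-1.29, adjusted p = 0.137). Pparg, the master regulator of fat cells, had 0.07 (adjusted p = 0.943). Hair follicle markers summed to 2.48 to 3.98 CPM with ointment, where 2 of the 6 were at 0 in at least 1 library, and to 18.4 to 502 CPM with saline. Their part in the Per1 difference was not tested.

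Per2 (ENSMUSG00000055866, chr1:91415982-91459324, minus strand), the period gene whose loss most disturbs behavioural rhythms in mice, did not pass. It had 9.27, 16.2, 11.9, 12.5 and 19.7 CPM in ointment ulcers 1 to 5, against 6.36, 5.84, 10.4, 10.1 and 21.8 CPM in saline ulcers 1 to 5. The highest of the 10 values was that of saline 5, and the ointment range lay inside the saline range. The log2 fold change was 0.35 (SE 0.37, 95% interval -0.47 to 1.17, adjusted p = 0.711 by edgeR), and without saline 5 it was 0.77 (adjusted p = 0.23). Per3 (ENSMUSG00000028957, chr4:151003652-151044665, minus strand), the most dispensable of the 3 period genes for the core loop, ran from 12.3 to 32.1 CPM in the ointment ulcers and from 12.7 to 30.4 CPM in the saline ulcers (log2 fold change -0.36, 95% interval -1.05 to 0.32, adjusted p = 0.624). The period genes thus gave 1 call and 2 intervals that include 0.

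Cry1 (ENSMUSG00000020038, chr10:85131700-85185064, minus strand) encodes the strong late repressor of ARNTL and CLOCK. It had 20.1, 21.1, 17.2, 14.6 and 24.3 CPM in ointment ulcers 1 to 5, against 9.45, 11.1, 10.6, 12.3 and 16.6 CPM in saline ulcers 1 to 5. The groups overlapped through ointment 4 and saline 5, and 4 of the 5 ointment libraries exceeded every saline library. The means of 19.4 ± 3.72 CPM with ointment and 12.0 ± 2.76 CPM with saline differed 1.62-fold without passing the adjusted threshold (log2 fold change 0.69, SE 0.19, 95% interval 0.27 to 1.12, edgeR adjusted p = 0.102), with an exact permutation p of 0.0159. The DESeq2 Wald test, which called 9.3% of 18081 genes, called it (adjusted p = 0.0129), and no fit with 1 library left out did (adjusted p = 0.0565 to 0.206). Cry2 (ENSMUSG00000068742, chr2:92403646-92434043, minus strand), its paralog, had almost the same mean in each group, 27.0 ± 2.01 CPM with ointment and 26.8 ± 5.99 CPM with saline. Its log2 fold change was 0.01 (95% interval -0.34 to 0.35, adjusted p = 0.989 by edgeR), with a sign that turned under 8 of the 20 alternatives.

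**Figure D2:**
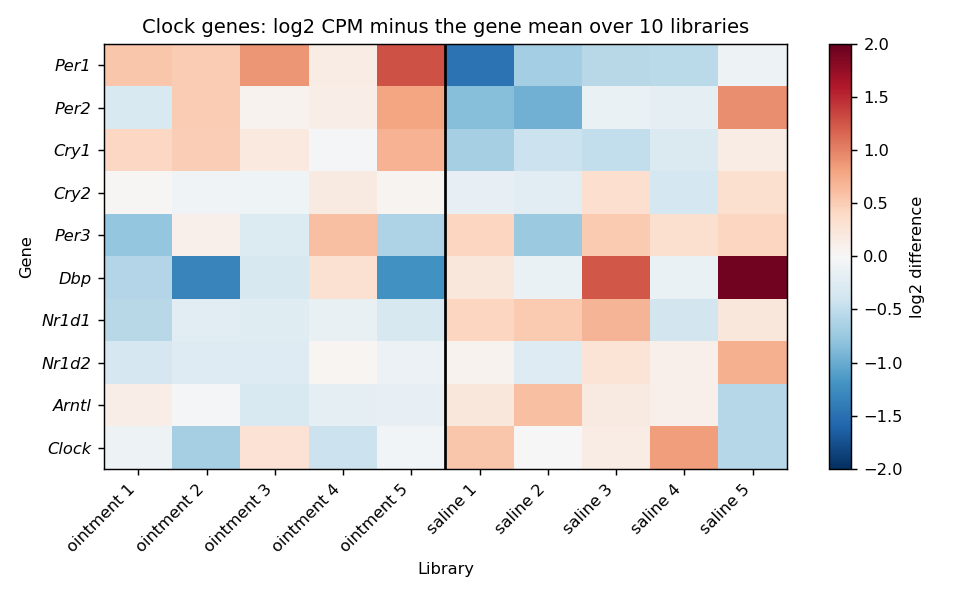
Log2 CPM of each clock gene (rows) in each library (columns, ointment left of the line and saline right) after subtracting the gene's mean over the 10 libraries; red is above the mean and blue below. Per1 is above its mean in all 5 ointment columns, and the saline 5 column is high for Dbp, Per2 and Nr1d2 and low for Arntl and Clock.

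The REV-ERB genes had negative fold changes. Nr1d1 (ENSMUSG00000020889, chr11:98767932-98775333, minus strand) had 20.9, 26.5, 25.9, 27.6 and 24.6 CPM in ointment ulcers 1 to 5, against 41.4, 44.1, 49.0, 23.7 and 36.0 CPM in saline ulcers 1 to 5. The ointment values were tightly grouped, and saline 4 was the 1 saline library among them. The means were 25.1 ± 2.58 CPM with ointment and 38.8 ± 9.67 CPM with saline (log2 fold change -0.63, SE 0.18, 95% interval -1.04 to -0.22), which did not pass edgeR's test (adjusted p = 0.117) and had an exact permutation p of 0.0397. Without saline 4 the log2 fold change was -0.78 and passed (adjusted p = 0.0415), as it did by the DESeq2 Wald test on all libraries (adjusted p = 0.0285). Exons of Nr1d1 share 263 bases, 8.5% of its exon length, with the thyroid hormone receptor gene Thra on the opposite strand, and counts were not stated to use strand. Without strand, a read in those bases could come from either gene. For Thra the difference was -0.27 on the log2 scale (adjusted p = 0.552). Nr1d2 (ENSMUSG00000021775, chr14:18204054-18239127, minus strand) had 74.6, 78.9, 79.1, 97.2 and 87.1 CPM in ointment ulcers 1 to 5, against 98.6, 79.0, 114, 101 and 155 CPM in saline ulcers 1 to 5. Its saline values other than saline 2 lay above all ointment values. The log2 fold change was -0.39 (SE 0.17, 95% interval -0.77 to -0.01, edgeR adjusted p = 0.273), the exact permutation p was 0.0476, and without saline 5 it was -0.24.

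Dbp (ENSMUSG00000059824, chr7:45705088-45710203, plus strand), an output transcription factor with one of the widest daily swings in mouse tissues, had the largest estimated difference of the members and also the widest interval. It had 8.93, 5.38, 10.8, 16.5 and 5.81 CPM in ointment ulcers 1 to 5, against 15.7, 12.2, 31.8, 12.2 and 51.2 CPM in saline ulcers 1 to 5. Ointment 4 was the ointment library that lay among the saline values, and saline 5 and saline 3 stood above the rest. The means were 9.48 ± 4.53 CPM with ointment and 24.6 ± 16.9 CPM with saline (log2 fold change -1.38, SE 0.48, 95% interval -2.45 to -0.30), and the difference did not pass (edgeR adjusted p = 0.177), with an exact permutation p of 0.0397. The DESeq2 Wald test placed it just under the threshold (adjusted p = 0.0473). Without saline 5 the log2 fold change was -0.92 (adjusted p = 0.324). Of its exon length, 18% (539 bases) is shared with Sphk2 on the opposite strand, a sphingosine kinase gene whose own log2 fold change was 0.19 (adjusted p = 0.739).

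The activators did not pass. Arntl (ENSMUSG00000055116, chr7:113207465-113314126, plus strand) had 19.6, 17.4, 14.5, 15.7 and 15.9 CPM in ointment ulcers 1 to 5, against 20.8, 27.1, 20.2, 19.0 and 12.1 CPM in saline ulcers 1 to 5. Saline 5 was the lowest of the 10 and saline 2 the highest, so the ointment values lay inside the saline range (log2 fold change -0.26, 95% interval -0.69 to 0.18, adjusted p = 0.581 by edgeR). Without saline 5 it was -0.39 (adjusted p = 0.248). Clock (ENSMUSG00000029238, chr5:76209868-76304792, minus strand), the partner of ARNTL, ran from 35.2 to 67.7 CPM in the ointment ulcers and from 37.5 to 98.7 CPM in the saline ulcers (log2 fold change -0.42, 95% interval -1.01 to 0.17, adjusted p = 0.476).

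**Figure D3:**
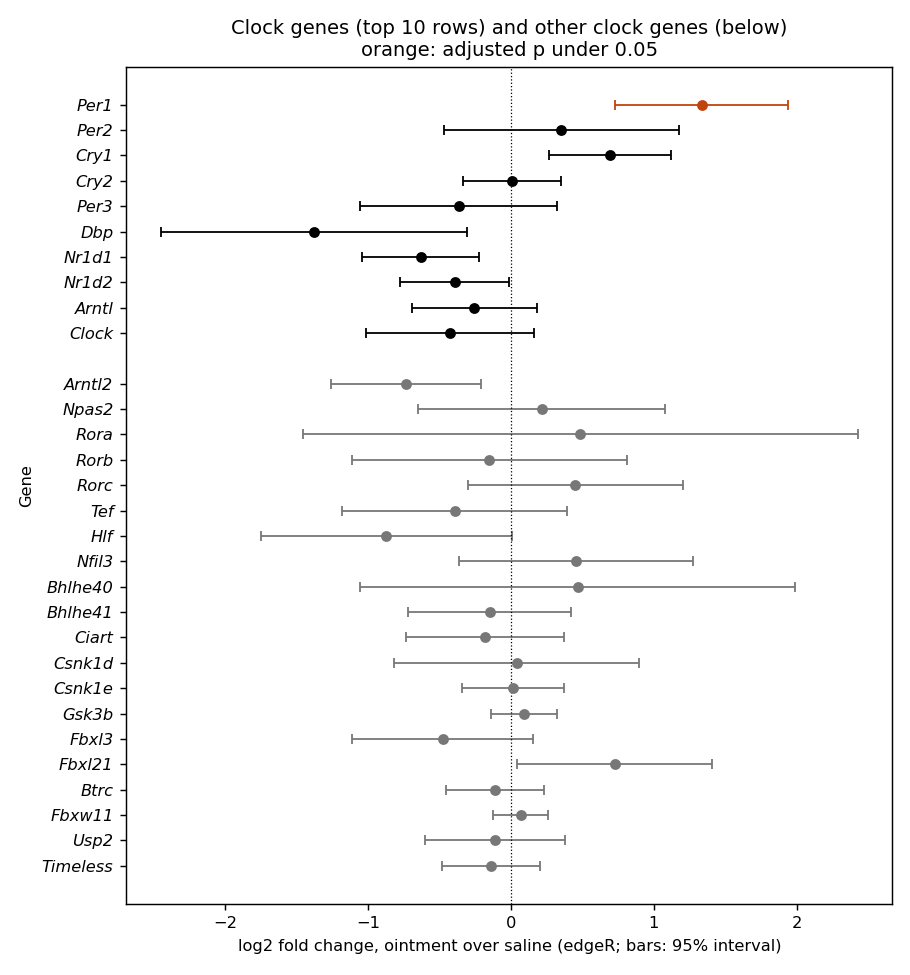
Log2 fold change, ointment over saline, with its 95% interval from edgeR for the 10 clock genes (upper rows) and 20 other clock genes (lower rows, grey); orange marks an adjusted p under 0.05. Per1, at 1.34, is the single orange point, and the intervals of Cry1, Nr1d1, Nr1d2 and Dbp exclude 0 without an adjusted call.

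Levels were set against each other per kilobase of exon, as the mean TMM-normalized CPM divided by exon length in the annotation. In the ointment ulcers Per1 (19.7 CPM per kilobase) and Nr1d2 (15.4) were the most abundant, followed by Nr1d1 (8.15), Cry1 (5.82), Cry2 (4.27), Clock (3.63), Dbp (3.17), Per2 (2.38), Arntl (2.21) and Per3 (2.05). In the saline ulcers the order of the CPM per kilobase was Nr1d2 (20.2), Nr1d1 (12.6), Dbp (8.23), Per1 (7.81), Clock (4.88), Cry2 (4.24), Cry1 (3.60), Arntl (2.64), Per3 (2.63) and Per2 (1.86). Neighbours in these orders overlapped in their range over 5 libraries in 8 of 9 pairs in the ointment ulcers, the exception being Nr1d2 above Nr1d1, and in all 9 pairs in the saline ulcers. Most single steps of the order are therefore within the spread. Dbp held place 7 with ointment and place 3 with saline, and Per1 place 1 with ointment and place 4 with saline.

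Across libraries, Per2 tended to be low where Arntl was high. Pearson's r of their log2 CPM over the 10 libraries was -0.859 (permutation p = 0.00116, adjusted 0.00928 over the 8 relations of Arntl computed) and Spearman's rho was -0.855 (permutation p = 0.00292, adjusted 0.0234). After removal of the group means r was -0.838 (adjusted permutation p = 0.0138), and as a description of 5 libraries each it was -0.382 within the ointment ulcers and -0.946 within the saline ulcers. Without saline 5 and saline 2, the libraries farthest from the median of Arntl, r was -0.686 (exact permutation p = 0.0598) and no longer held at 0.05, so it rests in part on those libraries. No relation of Arntl with Per1 was computed, because the groups did not overlap in Per1.

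The other relations of Arntl did not pass over all libraries, with r from -0.547 for Cry1 (adjusted permutation p = 0.362) to 0.402 for Clock (0.397). Nr1d2 had r = -0.465 (adjusted permutation p = 0.362; rho = -0.20) with Arntl over all libraries. After removal of the group means its r was -0.902 (adjusted permutation p = 0.0138). As a description of 5 libraries each, r was -0.506 within the ointment ulcers and -0.968 within the saline ulcers. With the group means left in and saline 5 and saline 2 left out, r was 0.416 (exact permutation p = 0.295). That value is to be set beside the -0.465 over all libraries, not beside the value after removal of the group means. The value after removal of the group means was not computed without those libraries, so its dependence on them was not tested. Dbp had r = -0.239 (adjusted permutation p = 0.506), and -0.665 after removal of the group means (adjusted permutation p = 0.0716). Libraries share their total in such values, so the relations are between shares of RNA.

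**Figure D4:**
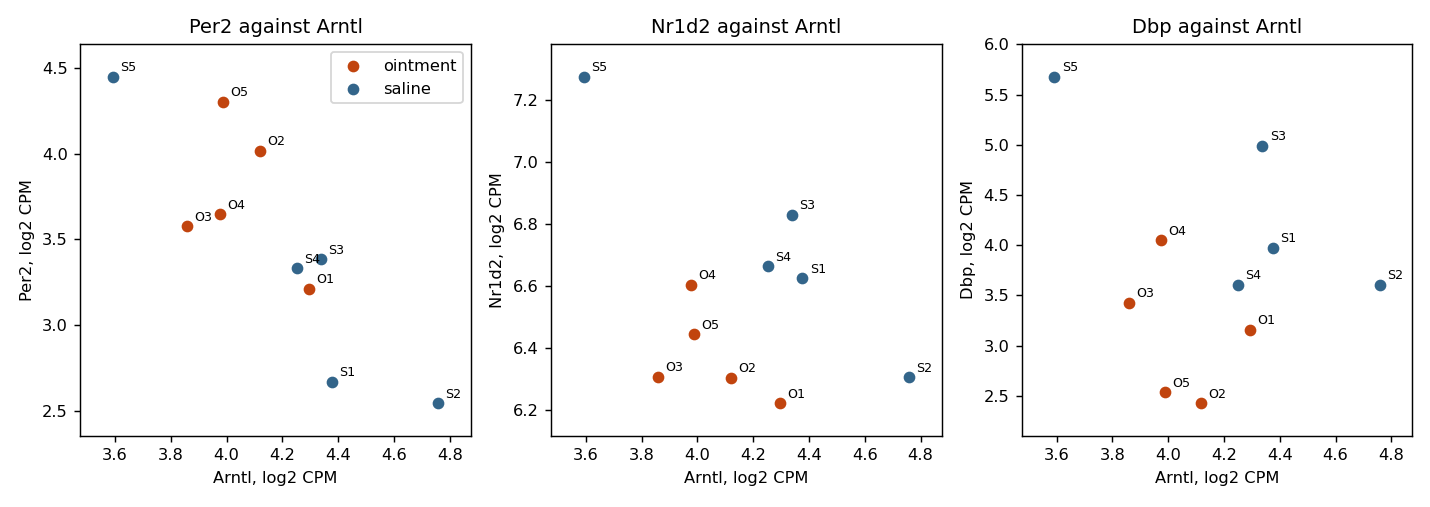
Log2 CPM of Per2, Nr1d2 and Dbp (vertical axes) against log2 CPM of Arntl (horizontal axes), 1 point per library; O is ointment, S is saline, followed by the library number. Per2 is lower where Arntl is higher (r = -0.859 over the 10 libraries), while in the Nr1d2 and Dbp panels saline 5 sits alone at the upper left.

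Saline 5 stood apart in the clock genes. It held the highest Per2, Nr1d2 and Dbp of all 10 libraries and the lowest Arntl, and within the saline group it also held the highest Per1 and Cry1 and the lowest Clock. No other library held more than 2 of the highest values, while ointment 1 held 3 of the lowest (Per3, Nr1d1 and Nr1d2). Saline 5 also had the lowest hair follicle marker sum of its group (18.4 CPM). Without saline 5, Per1 kept its call (log2 fold change 1.5, adjusted p = 0.0411 by edgeR), Cry1 had 0.84 (0.0565), and 6 of the 10 members had an unadjusted p under 0.05, against 15.7% of all genes.

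The largest positive relations of Dbp and Per3 with a marker sum were with skeletal muscle, and neither passed after adjustment. The skeletal muscle markers summed to 1865, 1266, 1754, 5169 and 942 CPM in ointment ulcers 1 to 5 and to 2760, 1336, 4488, 1497 and 3624 CPM in saline ulcers 1 to 5. For Dbp, r with this sum was 0.801 on the log2 scale (permutation p = 0.00455, rho = 0.818 with permutation p = 0.00578, r = 0.871 without ointment 4 and saline 3). Over the 63 relations of 7 marker sums with 9 members it did not pass (adjusted permutation p = 0.143 for r and 0.182 for rho). The hair follicle sum and Per1 were not among these relations. For Per3, r was 0.734 (permutation p = 0.0199, adjusted 0.238) and rho was 0.721 (permutation p = 0.0244, adjusted 0.24), and without ointment 4 and saline 3 r was 0.591. The largest negative relation of Dbp was with the neutrophil sum (r = -0.819, permutation p = 0.00404, adjusted 0.143; rho = -0.879, permutation p = 0.00168, adjusted 0.106; r = -0.923 without ointment 5 and saline 1). After removal of the group means, r of Dbp was -0.68 with the neutrophil sum and 0.857 with the skeletal muscle sum. None of the 63 relations passed after adjustment, and 11 had an unadjusted permutation p under 0.05 for r. The part of muscle or neutrophil RNA in the Dbp difference was not tested.

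**Figure D5:**
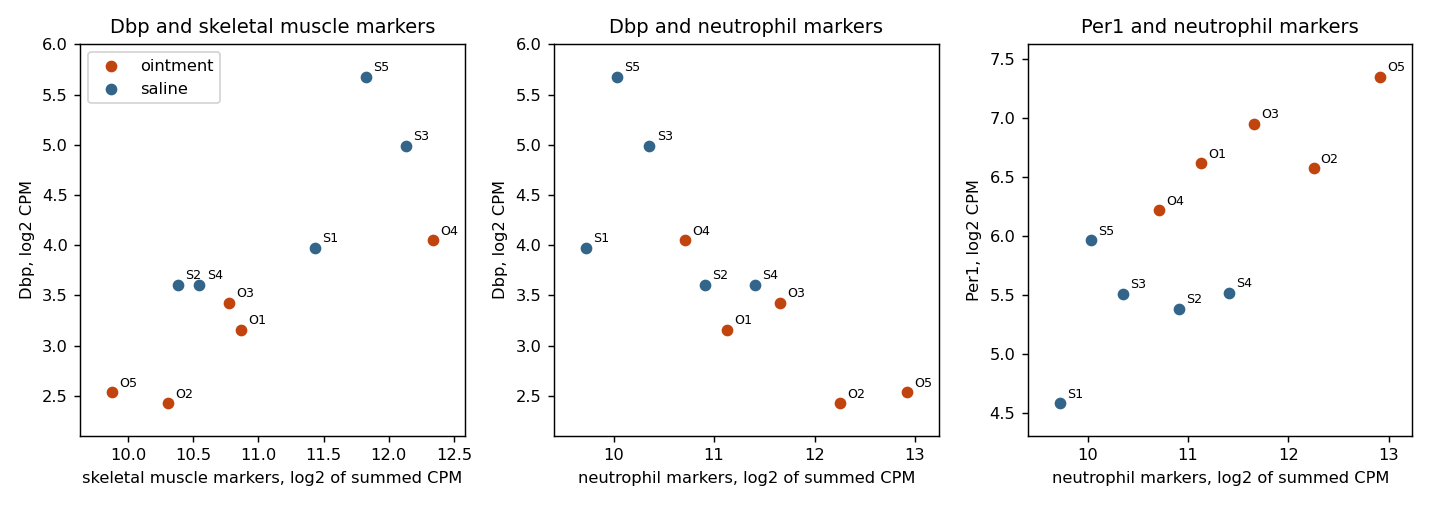
Log2 CPM of Dbp or Per1 (vertical axes) against the log2 of the summed CPM of 6 skeletal muscle or 6 neutrophil markers (horizontal axes), 1 point per library; O is ointment, S is saline, followed by the library number. Dbp is highest in saline 5 and saline 3, which are rich in muscle markers, and lowest in ointment 2 and ointment 5, which have the highest neutrophil sums. The highest muscle sum is that of ointment 4 (5169 CPM), where Dbp is 16.5 CPM. Neither relation of Dbp shown passed after adjustment.

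The genes whose pattern over the 10 libraries was most like that of Arntl, by Pearson's r of log2 CPM among 11941 genes, were Shb (0.922), Irx1 (0.918), Prmt3 (0.912), Acpp (0.906) and Arhgef17 (0.87). For Dbp they were Mllt3 (0.958), Tarsl2 (0.932), Plac9a (0.926), Mrps36 (0.92) and Gstt2 (0.918). These values measure likeness and carry no test. No other clock gene was among them.

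Among 20 other clock genes, none passed in the edgeR test. An unadjusted p under 0.05 was reached by 2 of the 20, Arntl2 and Fbxl21, against 17.1% of all genes. DESeq2 called 1 (Arntl2, lower), against 9.3% of all genes, and limma voom none, against 1.91%. These counts do not stand above those over all genes. Their median log2 fold change was -0.05, with 10 positive and 10 negative values. Arntl2, a paralog of Arntl, had 3.81, 3.72, 5.88, 6.11 and 3.20 CPM in ointment ulcers 1 to 5, against 8.54, 8.92, 5.64, 7.09 and 7.57 CPM in saline ulcers 1 to 5 (log2 fold change -0.73 ± 0.24 SE, edgeR adjusted p = 0.145). All but 1 of the saline values, that of saline 3, lay above the ointment values. Fbxl21, an F-box protein that binds cryptochromes, averaged 0.944 ± 0.316 CPM with ointment and 0.57 ± 0.086 CPM with saline (0.73, adjusted p = 0.259). Hlf, a relative of Dbp in the same D-box family, averaged 6.08 ± 2.43 CPM with ointment and 11.1 ± 5.28 CPM with saline (-0.87, adjusted p = 0.294). Tef, the third member of that family, had -0.39 (adjusted p = 0.653), so the D-box activators all had negative values and none passed.

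The list of 13 clock output genes shares 5 genes with the one above (Bhlhe41, Ciart, Hlf, Tef and Usp2), and of its 12 tested genes none passed by edgeR. An unadjusted p under 0.05 was reached by 2 of the 12, Noct and Lonrf3, a share close to the 17.1% of all genes. DESeq2 called both as higher (9.3% of all genes called), limma voom called none, and the median over the list was 0.10 on the log2 scale. Noct, the rhythmic phosphatase nocturnin, had 26.4, 71.7, 43.2, 46.4 and 106 CPM in ointment ulcers 1 to 5, against 22.2, 20.9, 28.8, 18.5 and 17.3 CPM in saline ulcers 1 to 5. Ointment 1 lay inside the saline range and the other ointment libraries above it (log2 fold change 1.45 ± 0.34 SE, edgeR adjusted p = 0.0661). Without ointment 1 it passed, at 1.64 (adjusted p = 0.0412). Lonrf3, a RING finger gene, averaged 3.92 ± 0.947 CPM with ointment and 2.34 ± 0.314 CPM with saline with no overlap (0.74, adjusted p = 0.113). Hlf was the third by p. Nr0b2 stayed below the filter and was not tested.

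Glucocorticoid-induced genes were examined because Per1 is one of the known targets of the glucocorticoid receptor. Of the 11 tested, 2 rose, against 0.692% of all genes, and 9 did not pass. An unadjusted p under 0.05 was reached by 5 of the 11, against 17.1% of all genes, and the median log2 fold change was 0.97. Positive fold changes were found for 9 of the 11, against 9195 of 18509 over all genes. Zbtb16 (-0.19) and Sgk1 (-0.0034) were negative. Among the positive ones, Cebpd was at 0 CPM in saline 1 and at 41.9 to 138 CPM elsewhere. Klf9 was at 0.0568 CPM in ointment 5 and at 1.48 and 4.39 CPM in saline 1 and saline 2. Pdk4, a kinase that holds back glucose oxidation, averaged 91.0 ± 31.4 CPM with ointment and 29.4 ± 8.0 CPM with saline (log2 fold change 1.63 ± 0.29 SE, edgeR adjusted p = 0.0298). Angptl4, a secreted inhibitor of lipoprotein lipase, averaged 323 ± 52.6 CPM with ointment and 152 ± 39.0 CPM with saline (1.08, SE 0.20, adjusted p = 0.0305). Both are also known targets of fatty acid sensing PPAR receptors and are expressed in fat cells, whose markers are given above, and the part of fat cells was not tested. Each kept its call in 3 of the 10 fits with 1 library left out: Pdk4 without ointment 3, ointment 4 or saline 3 (otherwise adjusted p = 0.0514 to 0.0749), and Angptl4 without ointment 4, saline 1 or saline 2 (otherwise 0.0519 to 0.0754).

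Among the 9 that did not pass, 3 (Tsc22d3, Fkbp5 and Sgk1) were picked for the description that follows after their values were seen. Tsc22d3 (GILZ), which damps inflammation, had 127, 129, 152, 146 and 143 CPM in ointment ulcers 1 to 5, against 54.5, 43.0, 93.8, 86.4 and 149 CPM in saline ulcers 1 to 5 (log2 fold change 0.71, adjusted p = 0.252 by edgeR). Saline 5 was the 1 saline library at the level of the ointment libraries. Fkbp5, a chaperone of the receptor, averaged 108 ± 28.9 CPM with ointment and 52.6 ± 35.2 CPM with saline (1.04, adjusted p = 0.318). The metallothionein gene Mt1 averaged 603 ± 219 CPM with ointment and 308 ± 143 CPM with saline (0.97, adjusted p = 0.22). Sgk1, a kinase gene, averaged 180 CPM in each group (-0.0034, 95% interval -0.21 to 0.20).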

How the data were processed

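Per the labels' protocols, total RNA of ulcer tissue went into a SMARTER mRNA library kit and was sequenced. The estimated counts per gene were deposited as whole numbers in 1 table with no normalization; they were treated as estimated because multiples of 4 occur more often than their neighbours. The submitters' processing notes name GRCm38 (mm10) as build. No aligner, counter, annotation release or strand setting is named in the labels or file headers (not given in the sources used here). Columns were matched to samples by title and description.

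The test had been planned for raw counts and was applied unchanged. It was edgeR 4.0.16 (R 4.3.3): TMM normalization, filterByExpr (minimum count 10, total 15), quasi-likelihood F-test with robust dispersion, group as the only term, and Benjamini-Hochberg adjustment over 18509 genes. Levels are TMM-normalized CPM, mean ± SD; single members were also compared by exact permutation, and log2 CPM used a prior count of 2. Correlations used 100000 permutations. Alternatives were DESeq2 1.42.0, limma 3.58.1 voom, other scalings and filters, values divided by 4, the replicate number as a block, and libraries left out. The pipeline was tested on simulated data. The labels do not say that libraries came from separate animals, so p-values reflect only the variation among these libraries, some of which may be technical.

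Positions and exon lengths came from GENCODE M21 (GRCm38), which held 55154 of 55421 IDs. The members and lists (other clock genes, clock output genes, glucocorticoid-induced genes, 8 cell marker lists) were chosen with earlier results of these data known. Named genes were the members, called genes and the 3 smallest p of the 3 lists, and the 5 genes most like Arntl and Dbp with a mean of at least 5 CPM. Tef, Tsc22d3, Fkbp5, Sgk1, Fabp4, Lep, Adipoq and Pparg, the antisense partners Thra and Sphk2, and the marker relations were added after their values were seen. So were Zbtb16, Cebpd, Klf9, C1qa, C1qb and the genes named from the neutrophil list.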

Additional observations from a re-analysis of the deposited data

Results flagged for a closer look

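Of 36 groups of 5 libraries screened (18 named genes in each group), 2 held a library far from the others by Dixon's test, and chance alone flags about 1 in 20 groups. Per2 was 21.8 CPM in saline 5, against 5.84 to 10.4 CPM in the other saline libraries. Per3 was 12.7 CPM in saline 2, against 26.4 to 30.4 CPM in the other saline libraries.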

How the results depend on the processing

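The number of all genes called was 310, against 1682 with DESeq2 (873 higher, 809 lower), 0 with the replicate block, 59 without saline 1 and ointment 5, and 102 (without ointment 3) to 422 (without ointment 4) with 1 library left out; without ointment 1, 2 or 5 or saline 1, 2, 3 or 4 it was 112 to 184. The number of clock genes called was 1, against 4 with DESeq2 (Per1 and Cry1 higher, Nr1d1 and Dbp lower), 0 with no low-count filter (31017 genes tested; Per1 adjusted p = 0.0505), 0 with the replicate block (Per1 0.141) and 0 without saline 1 and ointment 5 (Per1 0.0964), and 0 to 1 with 1 library left out (Per1 without ointment 4 or saline 5, Nr1d1 without saline 4). Other clock genes called were 1 with DESeq2, and clock output genes 2 with DESeq2 and 0 to 1 with 1 library left out. Glucocorticoid-induced genes called were 1 with limma voom, 0 with the replicate block, 0 without saline 1 and ointment 5, and 0 to 2 with 1 library left out. The relation of Arntl with Nr1d2 was -0.902 after removal of the group means, against -0.465 before. The log2 fold change of Cry2 reversed to -0.021 with upper-quartile scaling, -0.0442 with library sizes alone, -0.00817 with a 5 CPM filter, -0.0404 without saline 1 and ointment 5, and with 1 library left out it was -0.0779 to 0.095, negative without ointment 4, saline 1, saline 2 or saline 4; the cause was not tested. The other 9 clock genes kept their sign under all 20 alternatives, and no scaling moved the median of all genes by more than 0.06. Same-numbered libraries did not deviate together over all genes (r = -0.0772 to 0.0562, and 1 of 5 ointment libraries correlated best with its own number). The labels do not say what same-numbered libraries share besides the number, and these values do not decide it.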

Other observations

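Some genes of the lists fell into separate levels that did not follow the groups, a pattern noticed after the values were seen. Bhlhe40, an E-box repressor, was 28.3 CPM in ointment 5 and 99.0 to 134 CPM in the other ointment libraries, and it was 11.3 and 15.5 CPM in saline 3 and saline 5 against 105 to 123 CPM in the other saline libraries. Rora, which competes with the REV-ERB receptors, was 58.7 and 61.1 CPM in ointment 1 and ointment 2 and 63.9 CPM in saline 5, against 5.18 to 12.6 CPM in the other 7 libraries. Klf9 was 0.0568 CPM in ointment 5 and 1.48 and 4.39 CPM in saline 1 and saline 2, against 41.4 to 80.7 CPM elsewhere. The cause was not tested.

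The ratio of Per1 to Nr1d1 within a library, chosen after the values were seen and given with no test, was 2.23, 1.85, 2.26, 1.44 and 2.73 on the log2 scale in ointment ulcers 1 to 5, against -0.785, -0.0762, -0.0998, 0.956 and 0.795 in saline ulcers 1 to 5. The ratio of Dbp to Arntl was 2.09 in saline 5 and -1.15 to 0.652 in the other saline libraries, with -1.69 to 0.0721 in the ointment libraries.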
